A study of Mus musculus with 9 samples.

Results

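The growth hormone and insulin-like growth factor 1 (GH and IGF1) axis of the liver is described here through 10 genes, chosen by symbol: Ghr, Igf1, Igfals, Igfbp2, Socs2, Cish, Stat5a, Stat5b, Bcl6 and Jak2. All 10 were among the 54532 gene IDs of the count table, and all 10 were among the 14763 genes that had enough counts to be tested. Growth hormone from the pituitary binds its receptor on hepatocytes and activates the kinase JAK2, which phosphorylates the transcription factors STAT5A and STAT5B. STAT5 drives Igf1 and Igfals, whose products circulate together, and also the feedback inhibitors Cish and Socs2, while Bcl6 encodes a repressor that binds many of the same DNA sites as STAT5 and is itself lowered by growth hormone. In rodents the rhythm of growth hormone release differs between the sexes, with separate pulses in males and a more even level in females, and this rhythm sets the expression of sex-biased liver genes.

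Liver RNA came from ApoE-/- mice of the C57BL/6 background, male by the series design, in 3 groups of 3 libraries, each library from its own mouse. The normal diet group (replicates 4, 5 and 6) was the control. The HFD + PBS group (replicates 3, 4 and 6) ate a high-fat diet (fat gave 41% of its calories) for 20 weeks, beginning at 4 weeks of age, then 1 week of chow. PBS was given into the peritoneum at 25, 26 and 27 weeks, before death at 29 weeks. The HFD + IgG1 group (replicates 5, 6 and 7) had the same diet and times, with 3 mg of recombinant human IgG1 in place of PBS. The labels of replicates 6 and 7 of that group read IgG2 and IgG3, against their titles and the design. The antibody's target is not named, all groups carry the ApoE deletion by label, and livers were chosen for sequencing by lipid staining and triglyceride values. No source used here gives the age at death of the normal diet mice, whether they were injected, or the hour at which livers were taken. Diet therefore cannot be told apart from age or injection in comparisons with that group.

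Each library held 16215194 to 18538463 counts. Of the 9 libraries, 3 went against their labels: normal diet replicate 5 and HFD + PBS replicate 6 had 17065 and 10970 counts of Xist and 0 counts over 4 Y-linked genes, as female liver would, and HFD + IgG1 replicate 5 had 235888 counts of Apoe against 225 to 1655 in the others. Growth hormone signalling differs between the sexes, so values with these 3 libraries left out are given for the members and lists below. Each comparison in that setting is of 2 libraries against 2. Its HFD + IgG1 group keeps only libraries whose labels do not read IgG1, so its antibody values rest on no library labelled IgG1. Hepatocyte markers such as Alb were high in every library. Levels below are CPM, that is, counts scaled to a common library size with TMM factors, which adjust for differences in composition between libraries, and fold changes are log2 differences from edgeR's quasi-likelihood test with Benjamini-Hochberg adjustment over all 14763 genes.

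To compare levels between genes, CPM was divided by the length of each gene's merged exons. On this CPM per kilobase scale the order of mean levels over the 9 libraries ran from Igfbp2 (228 ± 77.3, SD) through Igf1 (53.5 ± 8.24), Ghr (41.8 ± 22.5), Igfals (24.2 ± 7.71), Stat5b (17.8 ± 3.01), Jak2 (6.33 ± 0.743), Socs2 (3.92 ± 3.10), Bcl6 (3.90 ± 2.88) and Stat5a (2.09 ± 0.421) to Cish (1.75 ± 1.35). The gap below Igfbp2 was wider than the spread, since its lowest library (112) lay above the highest of Igf1 (63.4). Stat5b, at 12.2 to 22.0, lay above Jak2, at 4.87 to 7.43, in every library. Ghr overlapped both Igf1 and Igfals, which did not overlap each other (38.2 at the lowest for Igf1, 37.1 at the highest for Igfals). Igfals overlapped Stat5b, Jak2 overlapped Socs2 and Bcl6, and Socs2, Bcl6, Stat5a and Cish overlapped one another. Stat5b exceeded Stat5a by 6.22 to 11.8 times per kilobase in the 9 libraries.

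No member passed edgeR's test at an adjusted p of 0.05 in any comparison, where 0% of the 14763 genes passed. In HFD + PBS against normal diet, the receptor gene Ghr and the binding protein genes Igfbp2 and Igfals were at lower values, with unadjusted p under 0.05 for 3 of 10 members, all lower. Of all tested genes 20.8% reached that, 9.41% higher and 11.4% lower. Of the 10 members, 4 had no overlap between the groups, all 4 with lower values in HFD + PBS (Ghr, Igfals, Igfbp2 and Stat5b), where 28.3% of all genes did not overlap, 13% with higher and 15.3% with lower values. In HFD + IgG1 against HFD + PBS, Ghr, Igfals and Igfbp2 were at higher values, with unadjusted p under 0.05 for these 3 (24.2% of all genes, 12.6% higher and 11.6% lower) and no overlap for these 3 (26.5% of all genes, 15.3% with higher and 11.2% with lower values). In HFD + IgG1 against normal diet, 0 of 10 members had an unadjusted p under 0.05 (7.04% of all genes, 3.83% higher and 3.21% lower) and 0 of 10 did not overlap (11.9% of all genes, 5.54% higher and 6.41% lower). The median log2 fold change of the members was -0.21, 0.17 and -0.14 in the 3 comparisons, beside -0.0028, 0.04 and 0.0033 over all tested genes. The comparisons share libraries, and those of the HFD + PBS group serve both the diet and the antibody comparison. With 10 members, the shares of 30% and 40% in the diet comparison and of 30% and 30% in the antibody comparison are near those of all genes and are no result about the members. On the same counts DESeq2 passed 2 members (Ghr and Igfbp2) in the diet comparison, where it passed 8.03% of all genes. It passed 3 (Ghr, Igfals and Igfbp2) in the antibody comparison, with 8.58% of all genes, and 0 in the third, with 0.753%. limma-voom passed 0 members in each, where it passed 0% of all genes.

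**Figure D1:**
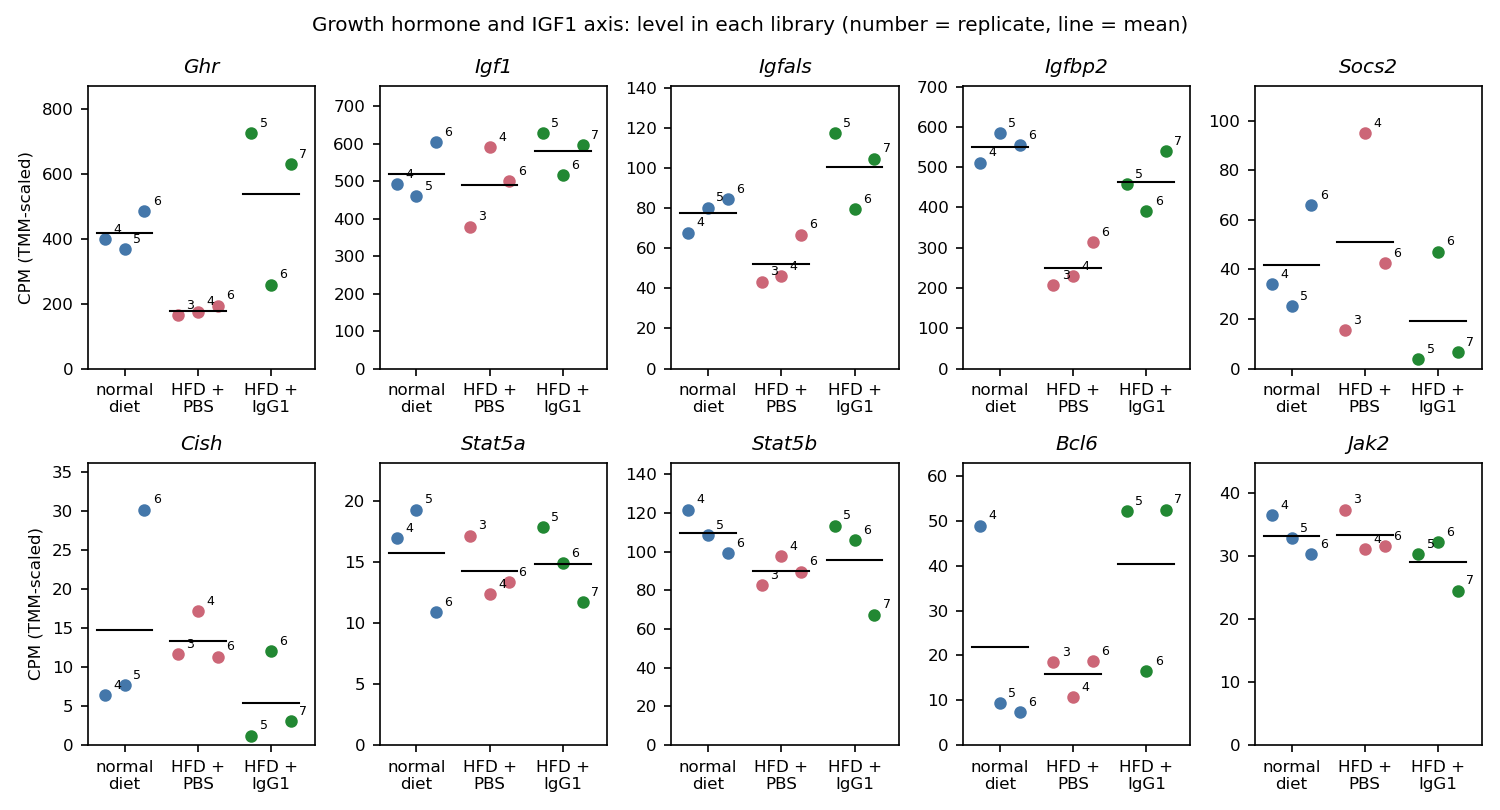
Each panel shows 1 gene in CPM (vertical axis from 0, its own scale) for the 3 groups on the horizontal axis. Points are libraries with their replicate number and lines are group means. Ghr and Igfbp2 lie lower in all 3 HFD + PBS libraries than in the other 6, while Socs2, Cish and Bcl6 scatter widely within groups.

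Ghr, the growth hormone receptor (ENSMUSG00000055737, chromosome 15, 3317760 to 3583492, minus strand, GRCm38), was at 400.0, 368 and 485 CPM in normal diet replicates 4, 5 and 6. In HFD + PBS, replicate 3 had 165, replicate 4 had 175.5 and replicate 6 had 194 CPM. In HFD + IgG1, replicate 5 had 726, replicate 6 had 258 and replicate 7 had 630.5 CPM. All 3 HFD + PBS libraries were below the other 6. Within the antibody group, replicate 6 lay between the HFD + PBS and the normal diet libraries, and replicates 5 and 7 lay above all normal diet libraries. The log2 fold change was -1.23 (SE 0.33, edgeR adjusted p = 0.111), or 2.34-fold lower, in HFD + PBS against normal diet. It was 1.60 (SE 0.33, edgeR adjusted p = 0.14), or 3.02-fold higher, in HFD + IgG1 against HFD + PBS, and 0.37 (SE 0.32, edgeR adjusted p = 0.818) in HFD + IgG1 against normal diet. Without HFD + IgG1 replicate 6 the first 2 differences passed edgeR's test, with adjusted p of 0.0166 and 0.00214, in fits that passed 3.79% and 15.5% of all genes. That library is outside the diet comparison, but all 9 libraries gave the spread. The antibody group then held replicates 5 and 7, and the Apoe counts of replicate 5 go against its genotype label. Without replicate 5 instead, the antibody difference was 1.27 and did not pass. With the 3 libraries that went against their labels left out the values were -1.35, 1.33 and -0.02, none past the test.

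Igfbp2, which encodes an IGF binding protein that hepatocytes release into blood (ENSMUSG00000039323, chromosome 1, 72824503 to 72852474, plus strand), was at 511, 585 and 555 CPM in normal diet replicates 4, 5 and 6. HFD + PBS replicates 3, 4 and 6 had 208, 230 and 314 CPM, and HFD + IgG1 replicates 5, 6 and 7 had 457, 391 and 540 CPM. The HFD + PBS libraries were again the 3 lowest, and the antibody group overlapped the normal diet group through replicate 7 only. The log2 fold changes were -1.14 (SE 0.21, edgeR adjusted p = 0.078), 0.89 (SE 0.21, edgeR adjusted p = 0.14) and -0.25 (SE 0.21, edgeR adjusted p = 0.815) in the same order of comparisons. The first is 2.20-fold lower, the smallest p among the members. Without HFD + IgG1 replicate 6 the edgeR adjusted p was 0.0264 in the diet comparison. It was 0.017 in the antibody comparison, where replicates 5 and 7 remained. With those 3 libraries left out the values were -1.26, 1.04 and -0.21.

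Igfals encodes the acid-labile subunit, which holds IGF1 and its binding protein in a large complex in plasma (ENSMUSG00000046070, chromosome 17, 24865997 to 24882010, plus strand). It was at 67.8, 80.3 and 84.7 CPM in normal diet, 43.3, 46.0 and 66.9 CPM in HFD + PBS, and 118, 79.5 and 105 CPM in HFD + IgG1. The gap between normal diet and HFD + PBS was narrow, at 67.8 against 66.9 CPM, and the second of these came from a library without Y-linked reads. The log2 fold changes were -0.58 (SE 0.21, edgeR adjusted p = 0.175), 0.95 (SE 0.21, edgeR adjusted p = 0.14) and 0.37 (SE 0.21, edgeR adjusted p = 0.742). Without HFD + IgG1 replicate 6 the antibody difference passed edgeR's test (adjusted p = 0.00994). With the 3 libraries that went against their labels left out the values were -0.74, 1.00 and 0.26.

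Igf1, the secreted hormone itself (ENSMUSG00000020053, chromosome 10, 87858265 to 87937042, plus strand), did not separate the groups as Ghr did. It was at 492, 461 and 603 CPM in normal diet, 379, 590.5 and 500.3 CPM in HFD + PBS, and 628, 516 and 596 CPM in HFD + IgG1. The 3 groups overlapped, and the highest and lowest libraries differed by 1.66 times, against 4.39 times for Ghr. The log2 fold changes were -0.08, 0.24 and 0.16, with 95% intervals of -0.55 to 0.39, -0.23 to 0.72 and -0.31 to 0.63. Leaving out the 3 libraries that went against their labels gave -0.15, 0.15 and 0.0071. A change in either direction of up to these bounds cannot be told from the spread between animals. HFD + PBS replicate 3 was the lowest library and HFD + IgG1 replicate 5 the highest for both genes, which correlated at 0.60. Other libraries differed: HFD + PBS replicate 4 had a Ghr level of 175.5 CPM and an Igf1 level of 590.5 CPM, while normal diet replicate 5 had 368 and 461.

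**Figure D2:**
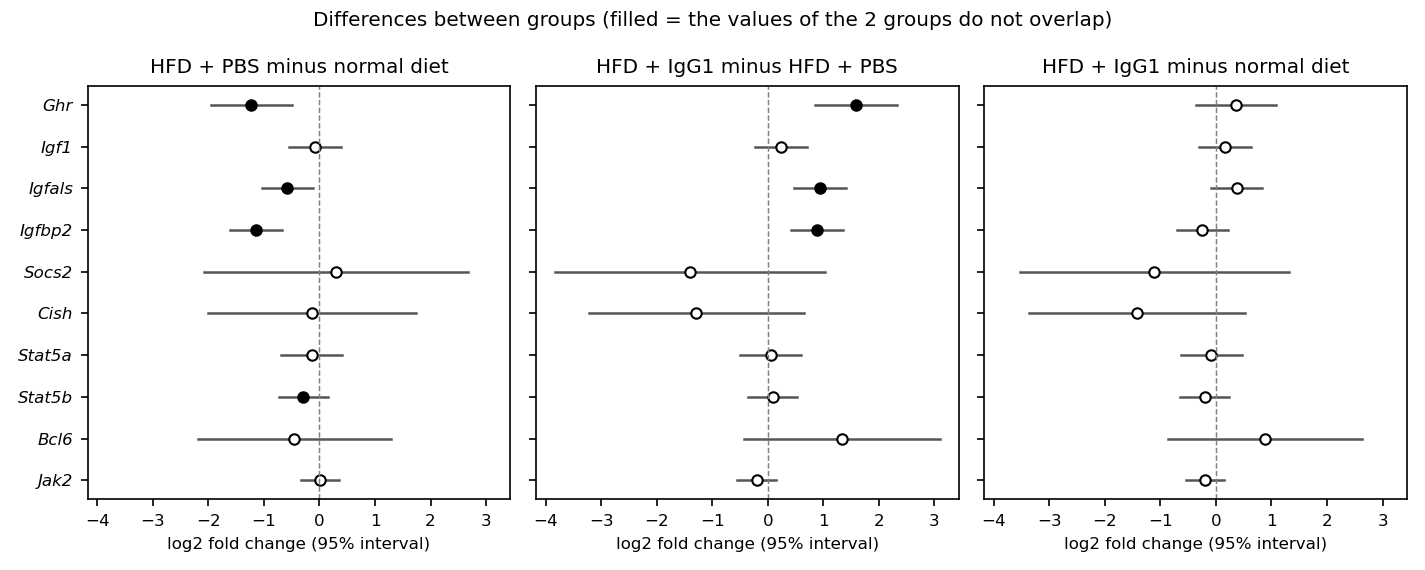
Log2 fold changes of the 10 members (rows) in the 3 comparisons (panels), with 95% intervals as bars and filled points where the values of the groups compared do not overlap. Ghr, Igfals and Igfbp2 have negative values in the left panel and positive values in the middle panel, and the intervals of Socs2, Cish and Bcl6 span 0 in all 3 panels.

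The kinase and the transcription factors varied little. Jak2, which passes the signal from the receptor (chromosome 19, 29251828 to 29313080), was at 30.3 to 36.5 CPM in normal diet, 31.0 to 37.4 in HFD + PBS and 24.5 to 32.2 in HFD + IgG1. Its log2 fold changes were 0.01, -0.20 and -0.20, with intervals of -0.34 to 0.35, -0.54 to 0.14 and -0.54 to 0.15. Stat5b, the more abundant STAT5 gene (chromosome 11, 100780731 to 100850724), was at 122, 109 and 99.3 CPM in normal diet, 82.8, 97.7 and 89.7 CPM in HFD + PBS, and 114, 106 and 67.4 CPM in HFD + IgG1. Normal diet and HFD + PBS did not overlap, but were separated by only 99.3 against 97.7 CPM, and the log2 fold change was -0.29 (interval -0.73 to 0.15). In the antibody comparison Stat5b was at 0.09 (-0.35 to 0.53), with replicate 7 the lowest of all 9 libraries. Stat5a (chromosome 11, 100859351 to 100885169) was at 10.9 to 19.3 CPM in normal diet, 12.3 to 17.1 in HFD + PBS and 11.7 to 17.8 in HFD + IgG1, with log2 fold changes of -0.14, 0.05 and -0.08. The Stat5a and Stat5b transcripts share sequence, with 8.21% of the distinct 50-base words of Stat5a also found in Stat5b. Stat5a also overlaps the end of Stat3 on the other strand by 72 bases, and Stat3 had 4171 counts per library on average against 265 for Stat5a. No source used here says whether counting used strand, so small differences of Stat5a are uncertain.

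Cish and Socs2, which encode inhibitors of cytokine receptor signalling induced by STAT5, and Bcl6 showed the widest spread among replicates. The SD of log2 CPM within groups was 1.38 for Socs2, 1.18 for Cish and 1.05 for Bcl6, while the median of the 13223 tested genes with at least 1 CPM was 0.29 and their 90th percentile 0.73. Ghr was at 0.49, and the other 6 members were between 0.16 and 0.33. The promoter windows of these genes in RefSeq's GRCm38.p6 table (250 bases before to 50 after each annotated start) were searched for the STAT5 palindrome TTCNNNGAA, which reads the same on both strands. Of the 9 members in the table, with 16 windows, 3 had a match, namely Cish, Bcl6 and Igfals, beside 9.55% of all 27025 genes. The members have more windows per gene than all genes do, which favours a match. Of all 32851 windows 8.3% held a match. Socs2 has no entry. The Cish window held 2 matches, as 0.457% of all 32851 windows hold at least 2, and the inner start of Bcl6 held 3, as 11 of all windows (0.0335%) hold at least 3. These stretches are shown because they carry matches, in capitals, of 2 of the genes that varied most and of Igfals. Another window of Bcl6 and another of Igfals each held 1 further match, not shown. A match is a description of the letters and does not show binding. The Cish stretch is the 30 bases around its pair of matches, and lies within an exon of a longer GENCODE model. Its matches begin at positions 251 and 262 of the window, past the 250 bases that come before the annotated RefSeq start.
Cish, chr9:107296654-107296683, plus strand: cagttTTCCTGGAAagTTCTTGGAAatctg
Bcl6, chr16:23981284-23981533, minus strand: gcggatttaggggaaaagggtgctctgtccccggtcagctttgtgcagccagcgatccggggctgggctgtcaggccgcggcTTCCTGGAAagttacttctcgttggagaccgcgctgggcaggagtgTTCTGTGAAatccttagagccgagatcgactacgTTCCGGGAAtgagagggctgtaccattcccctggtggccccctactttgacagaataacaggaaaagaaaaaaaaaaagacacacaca
Igfals, chr17:24877981-24878230, plus strand: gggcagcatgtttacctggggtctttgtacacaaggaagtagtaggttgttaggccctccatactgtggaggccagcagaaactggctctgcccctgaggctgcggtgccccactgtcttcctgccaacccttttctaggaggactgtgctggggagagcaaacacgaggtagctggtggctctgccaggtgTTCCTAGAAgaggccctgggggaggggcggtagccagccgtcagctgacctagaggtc

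Cish (ENSMUSG00000032578, chromosome 9, 107296026 to 107302784) was at 6.41, 7.68 and 30.2 CPM in normal diet replicates 4, 5 and 6. HFD + PBS replicates 3, 4 and 6 had 11.7, 17.2 and 11.3 CPM, and HFD + IgG1 replicates 5, 6 and 7 had 1.21, 12.1 and 3.02 CPM. The lowest of these values rests on 17 counts. Socs2 (ENSMUSG00000020027, chromosome 10, 95385362 to 95417180) was at 34.1, 25.0 and 65.8 CPM, then 15.6, 95.1 and 42.4 CPM, then 3.92, 47.2 and 6.58 CPM in the same order. For both genes HFD + IgG1 replicates 5 and 7 were the 2 lowest of all 9 libraries, and replicate 6 of that group fell among the HFD + PBS libraries. The highest library exceeded the lowest by 24.9 times for Cish and 24.2 times for Socs2. Bcl6 (ENSMUSG00000022508, chromosome 16, 23965052 to 23988852) was at 49.0, 9.41 and 7.38 CPM in normal diet, 18.5, 10.7 and 18.7 CPM in HFD + PBS, and 52.3, 16.5 and 52.6 CPM in HFD + IgG1.

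Bcl6 was high in the libraries in which Cish was low, apart from normal diet replicate 5. The 3 libraries with Bcl6 near 50 CPM (normal diet replicate 4 and HFD + IgG1 replicates 5 and 7) had the 3 lowest Cish levels, and the library with the lowest Bcl6, normal diet replicate 6, had the highest Cish. The ratio of Bcl6 to Cish, in CPM, was 7.65, 43.1 and 17.4 in those 3 libraries, 0.244 in normal diet replicate 6 and 0.623 to 1.65 in the other 5. Pearson correlations of log2 CPM over the 9 libraries, given as a description, were 0.90 for Cish with Socs2, -0.83 for Cish with Bcl6 and -0.73 for Socs2 with Bcl6. Of these libraries, HFD + IgG1 replicates 5 and 7 were also the 2 highest in Ghr. Normal diet replicate 4 was not set apart in Ghr, at 400.0 CPM between replicates 5 (368) and 6 (485) of its group. Ghr and Igfals were correlated at 0.90, Ghr and Igfbp2 at 0.84, and Ghr and Igf1 at 0.60. The libraries share diet groups, so these correlations include the group differences.

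**Figure D3:**
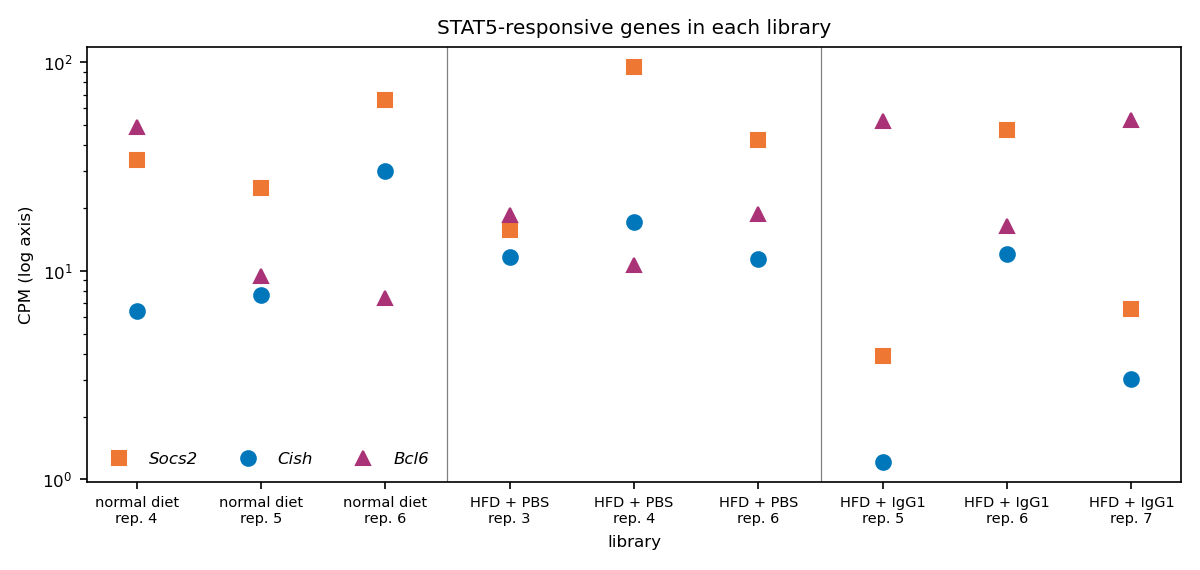
CPM on a log axis for Socs2 (squares), Cish (circles) and Bcl6 (triangles) in each of the 9 libraries, grouped by vertical lines. Bcl6 lies above Cish and Socs2 in normal diet replicate 4, HFD + PBS replicate 3 and HFD + IgG1 replicates 5 and 7, and below both in normal diet replicate 6 and HFD + PBS replicate 4.

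None of these 3 genes differed between groups beyond this spread. For HFD + IgG1 against HFD + PBS the log2 fold changes were -1.40 for Socs2 (interval -3.83 to 1.03, edgeR adjusted p = 0.43), -1.28 for Cish (-3.22 to 0.65, edgeR adjusted p = 0.369) and 1.34 for Bcl6 (-0.42 to 3.09, edgeR adjusted p = 0.309). The size of the first 2 depended on single libraries, in both directions. Socs2 was at -0.60 without HFD + PBS replicate 4, and Cish at -0.84 without HFD + IgG1 replicate 5. Without HFD + IgG1 replicate 6 Socs2 was at -3.27 (edgeR adjusted p = 0.0528) and Cish at -2.64 (edgeR adjusted p = 0.0623). In that last setting 8 of 10 members did not overlap between the groups. With 2 libraries against 3 in that setting, 53.1% of all genes did not overlap. In HFD + PBS against normal diet the values were 0.29 for Socs2, -0.14 for Cish and -0.46 for Bcl6. Each turned sign with a single library left out: Socs2 was at -0.50 without HFD + PBS replicate 4, Cish at 0.92 without normal diet replicate 6 and Bcl6 at 0.96 without normal diet replicate 4. Against normal diet, HFD + IgG1 was at -1.11 for Socs2, -1.42 for Cish and 0.88 for Bcl6, with intervals that include 0. With the 3 libraries that went against their labels left out, Socs2, Cish and Bcl6 were at 0.18, -0.31 and -0.92 in the diet comparison and at -1.06, -0.96 and 1.18 in the antibody comparison.

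Beyond the members, 10 of 14 listed genes of IGF ligands, receptors and binding proteins were tested. None passed adjustment, and in the diet comparison 3 had an unadjusted p under 0.05, all higher in HFD + PBS, with a list median of 0.51. That is 30% of the list, beside 20.8% of all genes. Igf1r, the receptor for IGF1, which hepatocytes express at low levels, was at 8.12, 6.68 and 4.38 CPM in normal diet, 18.7, 10.9 and 10.8 in HFD + PBS, and 5.57, 8.02 and 4.23 in HFD + IgG1. All 3 HFD + PBS libraries were above the other 6, with log2 fold changes of 1.07 (SE 0.33, edgeR adjusted p = 0.138) and -1.18 (SE 0.33, edgeR adjusted p = 0.14) in the first 2 comparisons, opposite in sign to Ghr. Igfbp3, the main carrier of IGF1 in plasma, was at 0.59 (SE 0.18, edgeR adjusted p = 0.136) in the diet comparison. Igfbp7, a related protein of endothelial and stromal cells, was at 0.52 and -0.70 in the diet and antibody comparisons, and Igf2r, the receptor that clears IGF2, at -0.22 and 0.22. Igfbp1, an IGF binding protein that insulin lowers, ranged most: 424, 70.4 and 371 CPM in normal diet, 82.3, 2614 and 441 CPM in HFD + PBS, and 27.9, 126 and 13.6 CPM in HFD + IgG1. Its antibody difference was -4.23 (SE 1.51, edgeR adjusted p = 0.164), and the groups overlapped. Igfbp5 was at -0.55 (SE 0.38) in HFD + IgG1 against normal diet. The list median in the antibody comparison was -0.51, with 3 of 10 genes at an unadjusted p under 0.05, all lower (30%, beside 24.2% of all genes). With the 3 libraries that went against their labels left out, 9 genes were tested, and 2 of them had an unadjusted p under 0.05 in each of these comparisons (22.2%, beside 15.1% and 8.4% of all genes). In that fit Igf1r was at 1.27 and -1.31, and Igfbp1 at 1.79 and -4.29.

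All 27 listed genes of growth hormone receptor signalling and its brakes were tested and none passed adjustment. With an unadjusted p under 0.05 there were 3 higher and 2 lower in HFD + PBS against normal diet (median 0.16), 2 higher and 7 lower in HFD + IgG1 against HFD + PBS (median -0.32), and 1 lower in HFD + IgG1 against normal diet (median -0.15). These are 18.5%, 33.3% and 3.7% of the list, beside 20.8%, 24.2% and 7.04% of all genes. Leaving out the 3 libraries that went against their labels gave 11.1%, 3.7% and 0%, beside 15.1%, 8.4% and 3.54% of all genes, and Irs1 was at -1.14 and 0.62 in the first 2 comparisons. Irs1, an adaptor of the insulin and IGF1 receptors, was at 28.9, 23.0 and 20.0 CPM in normal diet, 13.1, 8.63 and 11.7 CPM in HFD + PBS and 31.0, 15.8 and 18.9 CPM in HFD + IgG1. It was lower in the 3 HFD + PBS libraries than in the other 6, at log2 fold changes of -1.10 (SE 0.27, edgeR adjusted p = 0.0987) and 0.97 (SE 0.27, edgeR adjusted p = 0.14). Socs7 was at -0.68 (SE 0.18, edgeR adjusted p = 0.108) in the diet comparison. Ptpn6, a phosphatase of blood cells that removes phosphate from JAK2, was at 0.69 and -0.94, and Lyn, a kinase abundant in myeloid cells, at 0.60 and -0.75. Ptpn1, a phosphatase of JAK2 and the insulin receptor, was at -0.82 (SE 0.28) in the antibody comparison. In HFD + IgG1 against normal diet Irs2 was at -1.43 (SE 0.61), Shc1 at 0.29 and Grb14 at 0.27. Socs3, an inhibitor induced by STAT3 and chosen after its values were seen, was at 47.6, 35.6 and 26.0 CPM in normal diet, 35.5, 149 and 52.3 CPM in HFD + PBS and 6.14, 44.9 and 9.54 CPM in HFD + IgG1. As with Socs2 and Cish, antibody replicates 5 and 7 were the 2 lowest of the 9 libraries.

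**Figure D4:**
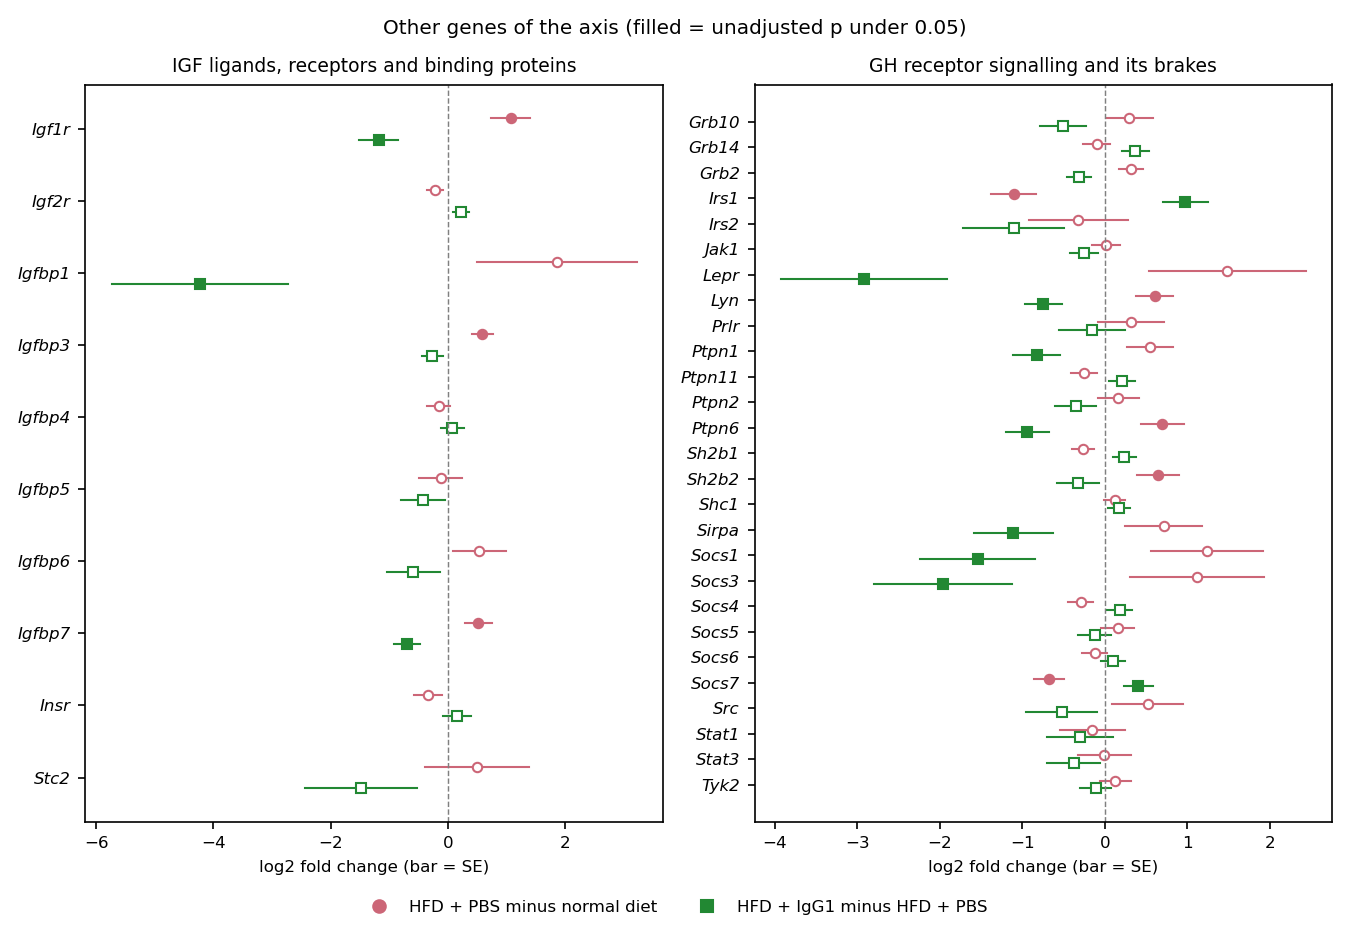
Log2 fold changes (horizontal axis, bars are SE) of the tested genes in the lists of IGF ligands, receptors and binding proteins (left) and of growth hormone receptor signalling and its brakes (right). Circles are HFD + PBS minus normal diet, squares are HFD + IgG1 minus HFD + PBS, filled where the unadjusted p is under 0.05. Igf1r and Irs1 have filled points on opposite sides of 0, and the comparisons share the HFD + PBS libraries.

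Genes whose liver expression follows the sex-specific rhythm of growth hormone were read beside the members. Of 24 listed male-biased genes 23 were tested, all 23 with negative values in the diet comparison (median -3.97, 14 with unadjusted p under 0.05) and all 23 with positive values in the antibody comparison (median 3.91, 14 with unadjusted p under 0.05). In HFD + IgG1 against normal diet 14 were positive and 9 negative (median 0.19), and none passed adjustment in any comparison. The 14 genes are 60.9% of those tested, beside 20.8% of all genes in the diet and 24.2% in the antibody comparison. This list, like the others here, was chosen with earlier results of these data known. It holds related Mup and Cyp4a12 genes read in the same animals, so the counts are not independent and are no test of the list. With the 3 libraries that went against their labels left out, all 24 genes were tested, with 24 negative in the diet comparison (median -5.25) and 24 positive in the antibody comparison (median 4.56). An unadjusted p under 0.05 then stood for 11 (45.8%, beside 15.1% of all genes) and 6 (25%, beside 8.4%). Against normal diet, HFD + IgG1 then had 5 positive and 19 negative, and the median turned to -0.63. The summed level of the 24 genes was 13919 and 43785 CPM in normal diet replicates 4 and 6, and 25611 and 29893 CPM in HFD + IgG1 replicates 5 and 7. It was 2305 CPM in normal diet replicate 5, 2057, 2876 and 975 CPM in HFD + PBS replicates 3, 4 and 6, and 3255 CPM in HFD + IgG1 replicate 6. Of the 5 low libraries, normal diet replicate 5 and HFD + PBS replicate 6 had no Y-linked reads and the other 3 had them. Mup3, a major urinary protein gene, was at 4634, 766 and 9608 CPM in normal diet, 152, 35.3 and 93.4 CPM in HFD + PBS and 8237, 741 and 8146 CPM in HFD + IgG1, and near-identical Mup genes may share its reads. Elovl3, a fatty acid elongase, was at 295, 0.891 and 558 CPM in normal diet, at most 0.722 CPM in HFD + PBS, and 467, 1.18 and 469 CPM in HFD + IgG1. Ugt2b1, a glucuronosyltransferase, was at 2.61 (SE 0.76, edgeR adjusted p = 0.14) in the antibody comparison. Antibody replicate 6 was thus low in male-biased genes and also had lower Ghr and higher Socs2 and Cish than replicates 5 and 7. The library with the largest sum of male-biased genes, normal diet replicate 6, had the highest Cish and the lowest Bcl6, so high male-biased expression occurred with both ends of the Bcl6 to Cish ratio.

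Of 26 female-biased genes 22 were tested, with 13 positive and 9 negative in the diet comparison (median 0.42) and 0 positive and 22 negative in the antibody comparison (median -1.25), 1 of them with an unadjusted p under 0.05 in each. That is 4.55% of the list, below the 20.8% and 24.2% of all genes. The list depended on the 3 libraries that went against their labels. With those left out, 21 genes were tested, with 18 positive and 3 negative in the diet comparison (median 1.43) and 4 positive and 17 negative in the antibody comparison (median -0.86). With an unadjusted p under 0.05 there were then 6 higher and 2 lower in the diet comparison and 2 higher and 4 lower in the antibody comparison. These are 38.1% and 28.6% of the list, beside 15.1% and 8.4% of all genes. In HFD + IgG1 against normal diet the median was -0.73, and it turned to 0.64 with those libraries left out. Cyp3a41a, a female-specific P450 whose close relatives may share its reads, was at 148 and 154 CPM in the 2 libraries without Y-linked reads and at 0 to 10.3 CPM in the other 7. Cyp39a1, an oxysterol hydroxylase, was at 1.23 (SE 0.52) in the diet comparison, and Tox at -0.87 (SE 0.37) in the antibody comparison. Cyp4a14, a fatty acid hydroxylase that PPAR-alpha also induces, was at -2.88 (SE 1.33) and Fmo2 at 1.11 (SE 0.68) in the diet comparison. Of 14 other growth hormone-responsive genes, 2 were higher and 3 lower at an unadjusted p under 0.05 in the diet comparison and 3 were lower in the antibody comparison. These are 35.7% and 21.4% of the list, beside 20.8% and 24.2% of all genes. Leaving out the 3 libraries that went against their labels gave 28.6% and 21.4%, beside 15.1% and 8.4%. Fgf21, a hormone that blunts hepatic growth hormone signalling, was at 7.08, 5.79 and 3.60 CPM in normal diet, 0.221, 0 and 1.39 CPM in HFD + PBS and 0.214, 0.962 and 2.35 CPM in HFD + IgG1, the normal diet libraries being the 3 highest. Myc, an early growth gene, was at 1.13 (SE 0.41) and -1.33 (SE 0.41), and Junb at -1.61 (SE 0.50) in the antibody comparison. Pdk4, which restrains glucose oxidation, was at -2.13 (SE 0.53) in the diet comparison and -2.08 (SE 0.53) in HFD + IgG1 against normal diet. Without the 3 libraries that went against their labels its diet difference was -2.88 and passed edgeR's test (adjusted p = 0.0391), as 2 of all 14870 genes tested did in that fit.

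The genes with the pattern most like a member's were found by Pearson correlation of log2 CPM over the 9 libraries among 8339 genes with at least 10 CPM. For Igf1 these were Alg1 (0.97), the urate oxidase gene Uox (0.97) and the translation helicase gene Eif4a2 (0.97). For Socs2 they were Wsb1 (0.94), whose product carries a SOCS box, Zfp113 (0.94) and Por (0.94), the reductase that feeds electrons to P450 enzymes. Por was at 153, 381 and 196 CPM in HFD + IgG1 replicates 5, 6 and 7 and at 816 CPM in HFD + PBS replicate 4, so it had its lowest and highest libraries in the same places as Socs2. For Bcl6 they were Gm15501 (0.94), the lipid kinase gene Pikfyve (0.93) and the choline kinase gene Chka (0.92). For Igfbp2 they were Msh3 (0.97), Nr1i3 (0.97), the nuclear receptor CAR, and Sec16b (0.96). Nr1i3 was at 35.3, 32.6 and 35.3 CPM in normal diet and at 16.0, 18.8 and 24.9 CPM in HFD + PBS.

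Markers of cell types moved with some of these results. In bulk liver RNA, fewer cells of a type and less RNA per cell cannot be told apart. The 7 hepatocyte markers in the table, of 8 listed, were all detected in every library, and summed to 68252 to 81070 CPM in normal diet, 47068 to 82348 in HFD + PBS and 79041 to 160912 in HFD + IgG1. The 2 libraries with the highest sums, HFD + IgG1 replicates 5 (160912) and 7 (124840), also had the highest Ghr and Igfals. Alb made up most of each sum. All 7 markers had positive log2 fold changes in HFD + IgG1 against HFD + PBS. Hnf4a, however, had 16912 counts in normal diet replicate 4 against 10783 in HFD + IgG1 replicate 5. The 6 neutrophil markers summed to 34.1 to 148 CPM in normal diet, 375 to 2939 in HFD + PBS and 12.8 to 468 in HFD + IgG1, with 1 marker at 0 in antibody replicates 5 and 7. The 6 markers of recruited macrophages, all detected, summed to 75.4 to 127, 258 to 431 and 64.6 to 172 CPM, and the 6 Kupffer cell markers to 1573 to 2073, 2012 to 2641 and 608 to 2220 CPM in the same order. Ptpn6 and Lyn are expressed in such cells. Sums of endothelial markers (307 to 528 CPM in HFD + PBS) and of stellate cell and fibroblast markers (527 to 789 CPM) overlapped with normal diet (389 to 426 and 434 to 702 CPM). The part of these markers in the results was not tested. Of the skeletal muscle and pancreatic acinar markers, Ckm, Myh4, Cpa1 and Pnlip were at 0 counts in all 9 libraries. Skeletal muscle markers summed to at most 1.85 CPM. Acinar markers summed to 3.76 to 21.5 CPM, nearly all from Cela1 (73 to 302 counts), with the highest sum in HFD + IgG1 replicate 5.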

How the data were processed

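Liver RNA of 9 mice was sequenced from NEBNext Ultra libraries, per the labels' protocols. The deposited table holds the authors' raw counts, whole numbers with 1 row for each Ensembl gene. The submitters' processing notes name mm10 and Bowtie 0.12.2 without their roles, and no source used here names the counting program or its strand setting. Symbols, positions and exon lengths came from GENCODE M21 (GRCm38), which named 54495 of 54532 IDs. Counts were analysed in R 4.3.3 with edgeR 4.0.16: TMM factors, filterByExpr (minimum count 10, total 15), a group-means model over all 9 libraries, robust quasi-likelihood fit, two-sided tests and Benjamini-Hochberg adjustment at 0.05. The biological coefficient of variation was 0.318. The SE was taken as the unshrunk log2 fold change divided by the root of F, and intervals are 95%, from edgeR's degrees of freedom. With 3 against 3 libraries an exact test cannot go below 0.1, so none was made. Depth was 16215194 to 18538463 counts per library. DESeq2 1.42.0 and limma 3.58.1 (voom), other scalings and filters, 1 fit with the replicate number as a block, and fits without each library were alternatives. The workflow was tested on simulated data.

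Groups came from the titles. The members and gene lists were chosen with earlier results of these data known. Named genes are the 10 members, up to 4 genes of smallest p in each list and comparison with at least 1 CPM, of which the text gives a part, and the 3 nearest patterns to each of 4 members. Lists without the libraries that went against their labels, and shares of all genes without overlap in each setting, were added after seeing the data. Promoter sequences are from RefSeq, GRCm38.p6, with 9 of 10 members matched.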

Additional observations from a re-analysis of the deposited data

How the results depend on the processing

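Ghr, Igfals and Igfbp2 kept their direction in the diet and antibody comparisons under every alternative run. The count of members past the test was 0 in each comparison. In HFD + PBS against normal diet it was 2 with DESeq2 (8.03% of all genes passed), 1 with no filter on low counts (1.03%) and 1 with only the 6 libraries compared (1.27%). In HFD + IgG1 against HFD + PBS it was 3 with DESeq2 (8.58%), 1 with no filter (0.215%) and 2 with the antibody group held to the library labelled IgG1 (3.45%). That setting rests on HFD + IgG1 replicate 5 alone, whose 235888 Apoe counts go against its genotype label, and it assumes that the lone sample varies like the others. With each library left out the count ran from 0 to 2 in the diet comparison and from 0 to 3 in the antibody comparison. It stayed at 0 in the third, where at most 0.0394% of all genes passed. The highest values came without HFD + IgG1 replicate 6 and with replicate 5 kept, with 3.79% and 15.5% of all genes passing. The count of members without overlap was 4, 3 and 0. In the diet comparison it was 3 with RLE factors and 2 with upper-quartile factors, each with 27.8% of all genes. With each library left out it ran from 3 to 5, from 3 to 8 and from 0 to 6. The highest counts came in settings with 2 libraries against 3, where 37.6%, 53.1% and 35.7% of all genes did not overlap.

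Directions turned only for differences that were small or widely spread. In the diet comparison limma-voom gave 0.20 for Cish and 0.069 for Bcl6, and upper-quartile factors gave -0.022 for Stat5a in the antibody comparison. With the libraries that went against their labels left out, Stat5a was at 0.11 (diet) and -0.19 (antibody), Stat5b at -0.093 (antibody) and Ghr at -0.018 (HFD + IgG1 against normal diet). With the antibody group held to the library labelled IgG1, Stat5a and Stat5b were at 0.19 and 0.053 against normal diet. With each library left out, the diet comparison ran from -0.22 to 0.098 for Igf1, -0.50 to 0.78 for Socs2, -0.47 to 0.92 for Cish, -0.34 to 0.039 for Stat5a, -0.87 to 0.96 for Bcl6 and -0.060 to 0.11 for Jak2. The antibody comparison ran from -0.14 to 0.18 for Stat5a and -0.085 to 0.25 for Stat5b, and HFD + IgG1 against normal diet from -0.29 to 0.093 for Stat5a. The cause was not tested.

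Samples with the same replicate number did not deviate together (correlations of -0.56 to 0.0117 over 13223 genes), so these values gave no sign of pairing by number. The pairs are few and include libraries that went against their labels, so this cannot decide whether the numbers mark mice handled together. A fit with the replicate number as a block passed 0 members in each comparison, with 0% of all genes. Under that block Igf1, Bcl6 and Jak2 were at 0.061, 0.078 and -0.11 in the diet comparison, Jak2 at 0.058 in the antibody comparison, and Stat5a and Stat5b at 0.080 and 0.056 in HFD + IgG1 against normal diet. Depth limits Cish most, with 17 counts in its lowest library.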
